A study of Bos taurus with 47 samples.

Results

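Fibroblasts and mature oocytes are the cells from which a cloned embryo is built: the fibroblast gives the nucleus and the enucleated oocyte gives the cytoplasm. Their RNA longer than 200 nt was compared here in bovine libraries, 4 of fibroblasts and 4 of oocytes, out of the 47 libraries in 12 groups of a study of embryos made by in vitro fertilization or by somatic cell nuclear transfer. The genes compared were the 13191 of 20526 in the deposited table with a normalised read count of 10 or more in at least 4 of these 8 libraries. The other 7335 genes did not meet that minimum, and 668 of them had no read in any of the 8. The fibroblasts were primary cultures grown from an ear biopsy of a Brahma Spanish bull cross. The oocytes were at metaphase II, after culture in TCM199 maturation medium with 10% fetal bovine serum, bovine follicle stimulating hormone, bovine luteinizing hormone, penicillin and streptomycin. For these 8 libraries the labels name no genotype, transgene or drug, and no passage or serum starvation for the fibroblast libraries themselves. The labels of the oocyte libraries do not say whether cumulus cells had been taken off before lysis. The labels' texts give different numbers of pools per stage, and the numbers here are those of the libraries.

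A metaphase II oocyte is arrested in meiosis and makes almost no new RNA. It lives on messages that were transcribed and stored while it grew, many of them with short poly(A) tails and translated only later, and these run the first cell divisions until the embryo's own genome becomes active. A skin fibroblast is a dividing connective tissue cell that transcribes continuously and puts much of its RNA into proteins of the extracellular matrix and the cytoskeleton. In nuclear transfer the first of these RNA populations receives a nucleus that had been making the second.

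Genes are named in the table by Ensembl identifiers only. Of the 20526 identifiers, 0 matched the RefSeq table used here (assembly ARS-UCD2.0), so neither the defining markers of fibroblasts, oocytes and cumulus cells nor any of the 40 lists of named genes could be looked up. The genes are therefore described in groups set by level and difference, and 2 identifiers are printed per direction.

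The libraries held 10082317 to 14669082 reads in fibroblasts and 8709911 to 14281462 in oocytes. On the log2(value + 1) scale over the 13191 genes the 4 oocyte libraries correlated with each other at r = 0.972 to 0.986. Fibroblast replicates 1, 2 and 4 correlated at r = 0.978 to 0.989, and fibroblast replicate 3 with these at only 0.831 to 0.847. The mean correlation with the oocyte libraries was 0.415 for replicate 3 and between 0.339 and 0.359 for the other 3 fibroblast libraries. Its depth, 10782057 reads, was within the range of the others. Fibroblast replicate 3 thus stood apart from its group, and the main counts and tests below are given with it and without it. Nothing in the labels says that the libraries of a group came from separate animals, cultures or collections, so a p-value here speaks only of the spread among these libraries, and that spread may be technical. Donor animals, and sex if the biopsied animal was male, cannot be told apart from cell type in these groups.

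Most genes differed between fibroblasts and oocytes, and in similar numbers in each direction. Of the 13191 genes, 10335 (78.3%) differed at an adjusted p under 0.05 (limma on log2(value + 1), Benjamini-Hochberg, two-sided, n = 4 and 4). Of these, 4902 (37.2% of the genes tested) were higher in fibroblasts and 5433 (41.2%) higher in oocytes. Without fibroblast replicate 3 the same 13191 genes gave 11296 calls (85.6%), 5324 (40.4%) higher in fibroblasts and 5972 (45.3%) higher in oocytes (limma, n = 3 and 4). Values are relative to each library's size factor, so a gene's level per cell, and differences in total RNA between an oocyte and a fibroblast, cannot be read from them. In bulk libraries like these, fewer cells of a type and less RNA per cell cannot be told apart. When every library was scaled to the same total, the median log2 difference of all genes moved from -0.13 to -0.50, and the calls became 4234 higher in fibroblasts and 6161 higher in oocytes (limma, Benjamini-Hochberg).

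The libraries themselves separated for nearly as many genes as the test called. For 9778 genes (74.1% of those tested) every fibroblast library lay on one side of every oocyte library, 4666 (35.4%) with the fibroblasts above and 5112 (38.8%) with the oocytes above. Without fibroblast replicate 3 there were 11101 such genes (84.2%), 5236 (39.7%) with the fibroblasts above and 5865 (44.5%) with the oocytes above.

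Differences were large in both directions, with more genes at 32-fold or more on the oocyte side. The median log2 difference of the called genes was 2.35 for those higher in fibroblasts (25th to 75th percentile 1.37 to 3.75) and -2.37 for those higher in oocytes (-4.17 to -1.33). Among the fibroblast genes 727 (14.8%) differed by less than 2-fold, 2374 (48.4%) by 2- to 8-fold, 1255 (25.6%) by 8- to 32-fold and 546 (11.1%) by 32-fold or more. Among the oocyte genes the same classes held 783 (14.4%), 2535 (46.7%), 1177 (21.7%) and 938 (17.3%). The 4 classes held 983, 2513, 1202 and 626 fibroblast genes and 1049, 2635, 1236 and 1052 oocyte genes without fibroblast replicate 3. Fold changes on the log2(value + 1) scale understate the differences of genes with low values.

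**Figure D1:**
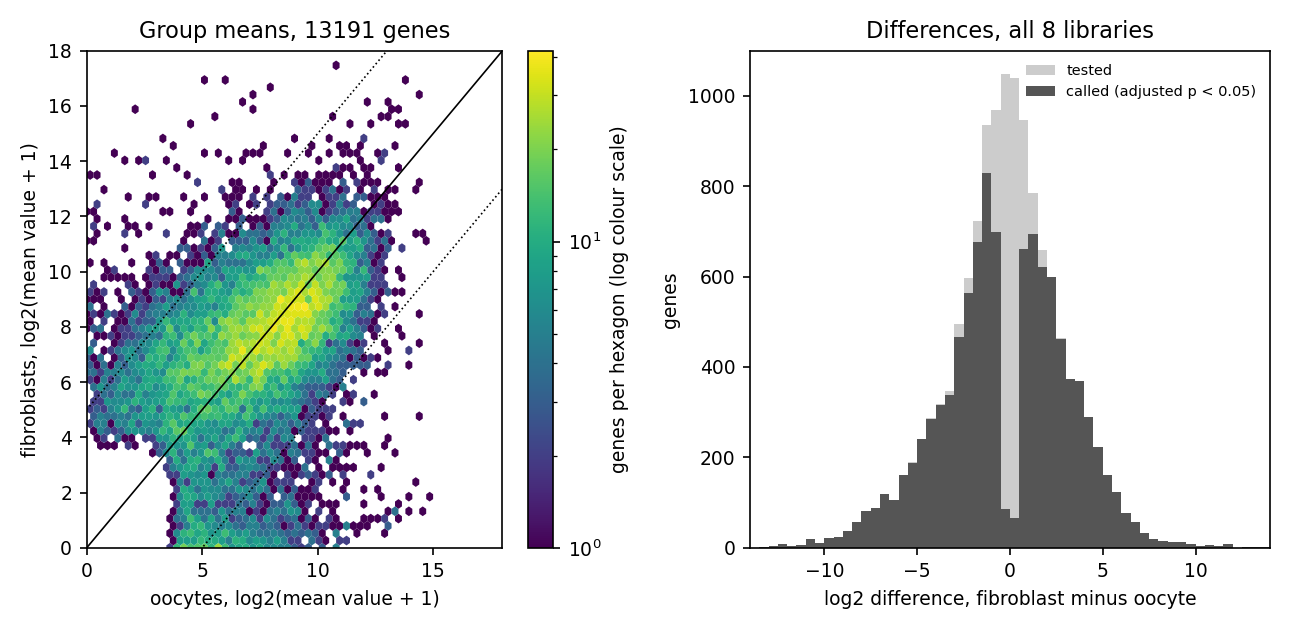
Left: mean value of each of the 13191 genes in the 4 oocyte libraries (x axis) and the 4 fibroblast libraries (y axis), both as log2(mean value + 1), with colour for the number of genes per hexagon, the solid line at equality and the dotted lines at a 32-fold difference. Right: number of genes by log2 difference, fibroblast minus oocyte, in steps of 0.5, with all genes tested in light grey and the 10335 called genes in dark grey; both wings are called almost whole, and the wing of genes higher in oocytes reaches 32-fold for 938 genes against 546 on the other side.

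Among the genes tested, the share called changed little with their level. The genes were put into 5 classes of equal size by their mean over all 8 libraries. In the lowest, with means of 5.99 to 52.2, 77.1% were called, and in the highest, with means of 806 or more, 81.4% (limma, beside 78.3% of all genes). The 5 classes ranged from 83.4% to 89.0% without fibroblast replicate 3. The share higher in oocytes was 41.9%, 34.6%, 40.3%, 44.6% and 44.5% from the lowest class to the highest, and the share higher in fibroblasts 35.2%, 40.9%, 37.9%, 35.0% and 36.8%. The second-lowest class was thus the only one of the 5 with more genes higher in fibroblasts. The median size of the difference was 2.44 on the log2 scale in the lowest class and 1.68 in the highest, more than 2-fold in both. A gene with a low mean meets the minimum set for testing more easily when its reads lie mostly in a single group. The size of the difference and the share called in the lowest class can therefore come in part from that minimum. How much of them does was not tested.

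The largest difference in favour of fibroblasts belonged to ENSBTAG00000021466. Its normalised read counts were 43499, 87263, 9961 and 92696 in fibroblast replicates 1 to 4, and 4.3, 6.2, 0 and 1.8 in oocyte replicates 1 to 4. Every fibroblast library was above every oocyte library by a wide margin, and replicate 3 was the lowest of the fibroblasts, at 13.4% of the mean of the other 3. The fibroblast mean was 58355 ± 39063 and the oocyte mean 3.08 ± 2.73 (SD, n = 4 each), a log2 difference of 13.72 ± 0.83 (SE; limma adjusted p = 9.89e-07), or 14.42 ± 0.64 without fibroblast replicate 3 (adjusted p = 5.71e-08). By reads it ranked 13 of all genes in fibroblasts, a rank that also reflects gene length, for which the values are not corrected.

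Second was ENSBTAG00000002080. It had 6014, 16958, 3097 and 23046 normalised read counts in fibroblast replicates 1 to 4, and 0.6, 0, 0 and 0 in the oocyte replicates, where 0.6 stands for 1 read. In the oocytes this gene was thus at the limit of what these depths can show, while the fibroblast libraries spanned a wide range in which replicate 3 was again lowest, at 20.2% of the mean of the other 3. The log2 difference was 13.00 ± 0.60 (SE; limma adjusted p = 2.31e-07), and 13.53 ± 0.41 without fibroblast replicate 3 (adjusted p = 2.80e-10).

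Among genes higher in oocytes ENSBTAG00000034346 came first. It had 22195, 17115, 25381 and 25457 normalised read counts in oocyte replicates 1 to 4, and 2, 1.4, 1.6 and 0.8 in fibroblast replicates 1 to 4, which are 2, 2, 2 and 1 reads. The fibroblast libraries did not differ from each other by more than 1 read here, replicate 3 included. The log2 difference was -13.17 ± 0.21 (SE; limma adjusted p = 3.95e-09), and -13.21 ± 0.20 without fibroblast replicate 3 (adjusted p = 1.11e-12).

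The next was ENSBTAG00000012053, the gene with the most reads of all in oocytes (rank 1). Its oocyte values were 27981, 30847, 27306 and 27710, and its fibroblast values 1, 2.8, 6.5 and 1.5, where replicate 3 was highest with 8 reads. The 4 oocyte libraries lay close together, with a mean of 28461 ± 1615 (SD, n = 4). The log2 difference was -13.01 ± 0.37 (SE; limma adjusted p = 3.31e-08), and -13.38 ± 0.20 without fibroblast replicate 3 (adjusted p = 1.01e-12).

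**Figure D2:**
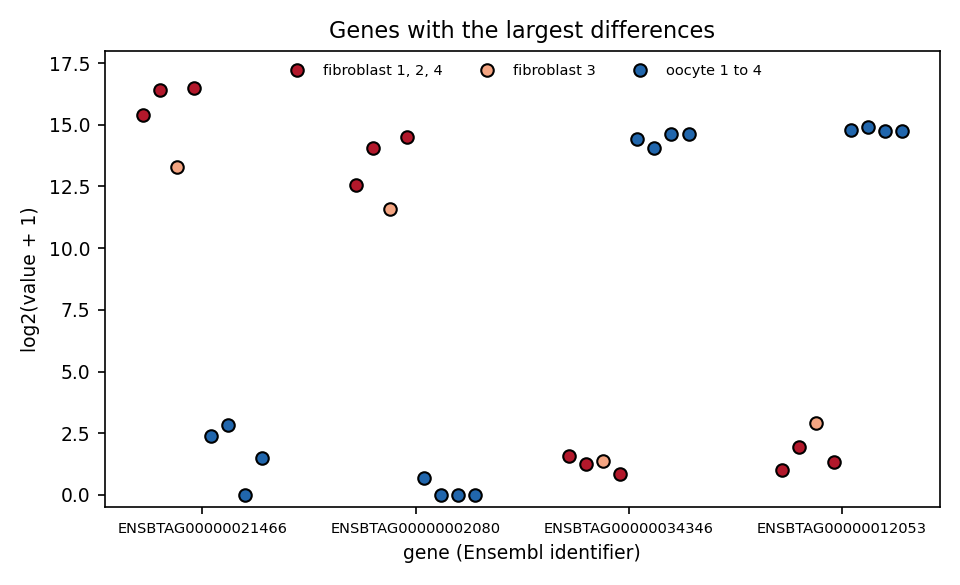
Normalised read counts of the 2 genes with the largest difference in each direction, as log2(value + 1), 1 point per library; within each gene the points run from fibroblast replicate 1 to oocyte replicate 4. Fibroblast and oocyte points do not overlap in any of the 4 genes, and fibroblast replicate 3 (light) is the lowest fibroblast point in both fibroblast genes.

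Oocyte RNA was spread over more genes than fibroblast RNA. The 10 genes with the most reads took 15.0%, 15.7%, 9.17% and 15.8% of all reads in fibroblast replicates 1 to 4, and between 3.11% and 3.36% in the oocyte libraries. The groups did not overlap. The fibroblast mean was 13.9 ± 3.18% and the oocyte mean 3.19 ± 0.117% (SD, n = 4 each; exact permutation p = 0.0286, two-sided, the smallest the design allows; adjusted p = 0.0381 over 4 such measures). The top 100 genes took 33.8 ± 4.99% and 14.7 ± 0.237% (exact permutation p = 0.0286, adjusted p = 0.0381; n = 4 each). To reach 50% of the reads took 359, 325, 602 and 316 genes in the fibroblast libraries and 962 to 1044 in the oocytes (exact permutation p = 0.0286, adjusted p = 0.0381; n = 4 each). Fibroblast replicate 3 was the least concentrated of the fibroblasts in all 3 measures and still outside the range of the oocytes. Without it the top 10 genes took 15.5 ± 0.4% (SD, n = 3) and 50% of the reads lay in 333 ± 22.7 genes, and 3 libraries against 4 cannot give an exact p under 0.0571.

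Fewer genes were detected in fibroblasts, but not beyond the overlap of the libraries. Every library was thinned to the depth of the shallowest. The expected number of genes with 10 reads or more was then 11563 to 12273 in fibroblasts and 12181 to 12791 in oocytes. The means were 11803 ± 320 and 12518 ± 256 (SD, n = 4 each, exact permutation p = 0.0571, adjusted p = 0.0571). The overlap came from fibroblast replicate 3, with 12273 such genes. The other 3 fibroblast libraries had at most 11730.

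**Figure D3:**
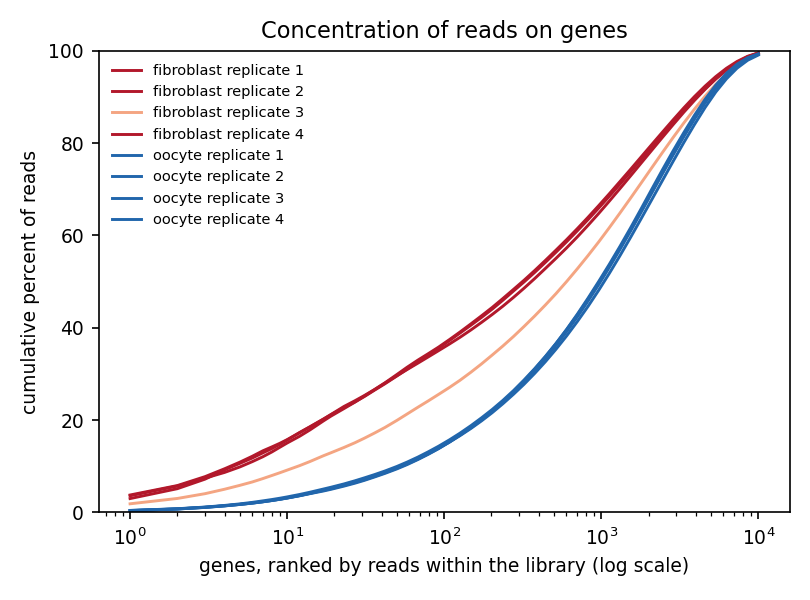
Cumulative percent of a library's reads (y axis) against the number of genes, ranked within that library by reads (x axis, log scale), 1 line per library. Fibroblast replicates 1, 2 and 4 rise earliest, with 35.8% to 36.6% of reads in the top 100 genes, the 4 oocyte libraries lie together at 14.5% to 15.0%, and fibroblast replicate 3 runs between them at 26.3%.

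The genes with the most reads in one cell were mostly different genes from those in the other. Of the 100 top genes of each group, 16 were shared. Of the fibroblasts' top 100, 94 were called higher in fibroblasts and 1 lower (limma, beside 37.2% and 41.2% of all genes), and 39 were at least 32-fold higher. Their median value was 18818 in fibroblasts and 1289 in oocytes, and 10 of them had an oocyte mean below 10. Of the oocytes' top 100, 81 were called higher in oocytes and 14 lower, and 36 were at least 32-fold higher. Their median value was 9112 in oocytes and 986 in fibroblasts, and 19 had a fibroblast mean below 10. Among the top 1000 genes 293 were shared. When fibroblast replicate 3 was left out, 16 of the top 100 and 290 of the top 1000 were shared, and 98 of the fibroblasts' and 82 of the oocytes' top 100 were called higher in their own group. These genes were picked by the same values that were compared, so their calls describe the lists and test nothing further.

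A large body of genes was present in both cells. In 9352 genes, 45.6% of the table, all 8 libraries had a value of 10 or more. In 830 genes all fibroblast libraries had 10 or more and all oocyte libraries less, and in 1185 genes the reverse held. Without fibroblast replicate 3 these 3 classes held 9552, 1109 and 1598 genes.

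Genes present in oocytes and at the floor in fibroblasts outnumbered the reverse. A gene was counted when it had at most 3 reads in every library of one group and a value of at least 50 in every library of the other. By this rule 362 genes were on in oocytes and at the floor in fibroblasts, and 43 were on in fibroblasts and at the floor in oocytes. Of the 362, 84 had no read in any fibroblast library, and 53 had an oocyte mean of 1000 or more. Of the 43, 4 had no read in any oocyte library, and 17 had a fibroblast mean of 1000 or more. Leaving out any library can only raise counts of this kind, and only fibroblast replicate 3 was left out here. Without it the counts were 561 and 132. With a floor of 10 reads they were 556 and 137, so the larger number on the oocyte side remained under each of these rules. A floor of 3 reads was a value of 2.09 to 3.02 in the fibroblast libraries and 1.55 to 2.65 in the oocyte libraries. Reads were amplified by PCR and are not taken as independent molecules, so such floors cover counting error only.

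Few of the strongly represented genes could be shown to lie at nearly the same level in both cells. A mean of 1000 or more in both groups was met by 799 genes, of which 478 were called different and 507 differed by less than 2-fold. In 52 of the 799 the 95% confidence interval of the log2 difference lay within 0.5 on either side of 0. Without fibroblast replicate 3, which narrowed the intervals, this held for 98 of 764. Of the 2856 genes that were not called, 1400 had an interval within 1 log2 unit on either side of 0, and 363 had a difference of 1 log2 unit or more that the spread between libraries did not allow to be called. A gene that was not called is therefore not shown to be at the same level in both cells.

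The spread between libraries was much the same in both cells once fibroblast replicate 3 was left out. The median SD of a gene on the log2(value + 1) scale was 0.44 over the 4 fibroblast libraries, 0.24 over fibroblast replicates 1, 2 and 4, and 0.25 over the 4 oocyte libraries. The fibroblast SD was the larger in 73.6% of the genes with replicate 3 and in 48.6% without it. Of the genes called with all 8 libraries 10286 were also called without replicate 3, in the same direction, 0 were called in the opposite direction and 49 were lost. A further 448 genes higher in fibroblasts and 562 higher in oocytes were called only without it, with a median size of 0.91 log2 units. In 934 of these, replicate 3 lay outside the range of the other fibroblast libraries on the side of the oocytes. Picking genes called only without replicate 3 favours genes of this kind, so the 934 describes the list and tests nothing further.

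To describe fibroblast replicate 3, strongly different genes were chosen from the other 7 libraries alone. With a value of 10 or more in at least 3 of the 7, a difference of at least 32-fold and an adjusted p under 0.05 (limma), 685 fibroblast-high and 1053 oocyte-high genes were found. Of the 546 and 938 genes chosen with all 8 libraries, 534 (97.8% of the 546 and 78.0% of the 685) and 901 (96.1% of the 938 and 85.6% of the 1053) were in both lists. Fibroblast replicates 1, 2 and 4 took part in the choice from 7 libraries and replicate 3 did not. Part of its distance from them can come from that choice. The same rule without fibroblast replicate 1, 2 or 4 gave 532, 519 and 518 fibroblast-high and 911, 900 and 912 oocyte-high genes. The library left out was not set against those lists. In the lists chosen with all 8, the fibroblast-high median was 198.5 in replicate 3 and 600 to 664.5 in the other fibroblasts. There, 119 oocyte-high genes had 50 or more in replicate 3, and 37 to 43 in the other fibroblasts.

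The fibroblast-high genes were lower in replicate 3 almost throughout. Their median normalised read count was 478, 506, 157 and 506 in fibroblast replicates 1 to 4, and 4.3, 6.2, 2.5 and 3.5 in oocyte replicates 1 to 4. Replicate 3 was the low one among the fibroblasts, and it stayed far above the oocytes: it was above every oocyte library in 683 of the 685 genes and below every other fibroblast library in 614. Gene by gene its value was 24.6% of the mean of the other 3 in the median, with 13.4% at the 25th and 51.3% at the 75th percentile. For 46 genes it was at or above that mean. The other fibroblast libraries stood at medians of 93.0%, 99.3% and 103% of the mean of their 2 fellows. These genes took 23.2%, 26.8%, 7.27% and 26.0% of all counts in fibroblast replicates 1 to 4 and at most 0.296% in an oocyte library.

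The oocyte-high genes were higher in replicate 3 in an uneven way. Their median was 0, 0.7, 3.3 and 0.8 in fibroblast replicates 1 to 4 and 270.1 to 276.9 in the oocytes. Most of these genes stayed near 0 in replicate 3: 243 had no read, and 528 of the 1053 were under 1% of the oocyte mean. At the other end 92 genes reached 50% or more of the oocyte mean, and 49 were above every oocyte library. The highest had a value of 85021 in replicate 3, where it ranked 4 among all genes, against means of 1465 in oocytes and 12.8 in the other 3 fibroblast libraries. Values of 50 or more were reached by 41, 37, 196 and 35 of the 1053 genes in fibroblast replicates 1 to 4. The share of all counts on these genes was 2.83% in replicate 3, at most 0.0889% in the other fibroblasts and 14.3% to 15.3% in oocytes. The single highest gene made up 0.967% of the counts of replicate 3 and the other oocyte-high genes 1.86%. For the 938 oocyte-high genes chosen with all 8 libraries, which do not include that gene, the share in replicate 3 was 0.505%, against at most 0.0963% in the other fibroblasts.

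**Figure D4:**
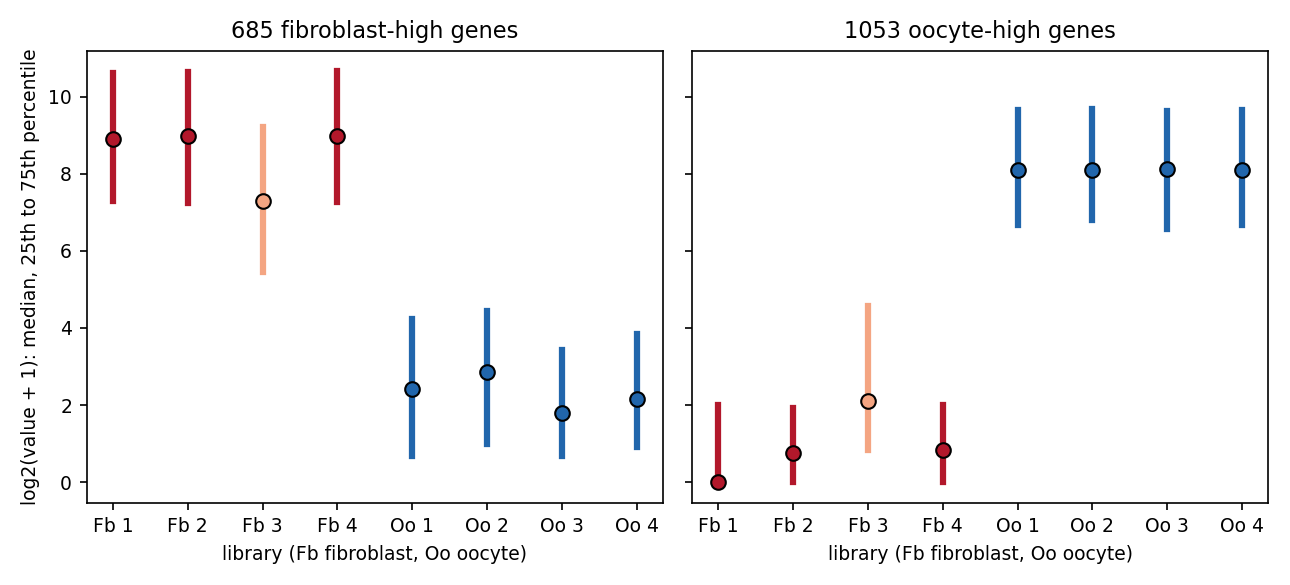
Median (points) and 25th to 75th percentile (bars) of log2(value + 1) in each library for the 685 fibroblast-high and 1053 oocyte-high genes chosen without fibroblast replicate 3. In replicate 3 (light) the fibroblast-high genes have a median value of 157 against 478 to 506 in the other fibroblasts, and the oocyte-high genes 3.3 against at most 0.8.

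Of the genes that were high in replicate 3 and low in the other fibroblasts, some were low in the oocytes as well. Among all genes, 568 had a value of 50 or more in replicate 3 and at least 8 times that of every other fibroblast library, both with 1 added. Of these, 250 had 50 or more in every oocyte library and 82 had less than 10 in every oocyte library. Without replicate 3, 345 of the 568 were called higher in oocytes (limma, beside 45.3% of the 13191 genes). Picking genes that are low in the other fibroblasts favours such calls, so the 345 describes the list. Their median was 362 in replicate 3 and 53.4 for the oocyte means. Of the 11 other groups, the highest mean was in IVF 2-cell embryos for 103 of them, in oocytes for 88 and in blastocyst-derived cells of IVF embryos for 76, and each of the other 8 groups was highest for 8 to 56. Apart from the calls, the same counts were not made over all genes, so they do not show how the 568 differ from genes in general. A total of 133 genes had 50 or more in the other 3 fibroblast libraries and at least 8 times less than each of these in replicate 3. Without replicate 3, 121 of the 133 were called higher in fibroblasts (limma, beside 40.4% of the 13191 genes). That choice favours such calls as well. The same comparison of fibroblast replicates 1, 2 and 4 with each other gave 3 higher genes in replicate 1, 0 in the others and 0 lower genes.

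For most genes that differed strongly between the groups, replicate 3 lay nearer to the other fibroblasts than to the oocytes. Over 4392 genes that differed at least 8-fold without it, its position between the mean of the other fibroblasts (0%) and the mean of the oocytes (100%) on the log2 scale had a median of 16.1%. For 1342 of these genes it was at or beyond the fibroblast mean, and for 803 past the midpoint. The 4392 genes are not the same set as the called genes in the 8-fold and larger classes above, which came from the 13191 genes. Over 15816 genes the correlation of replicate 3 with the oocyte mean was 0.619, against 0.580 for fibroblast replicate 1. With the mean of blastocyst-derived cells of IVF embryos it was 0.767, against 0.781. Replicate 3 was also above every other fibroblast library for IVF 2-cell, 8-cell, morula and blastocyst means. For IVF 8-cell embryos it was at 0.685, against at most 0.654. The same held for nuclear transfer 2-cell, 8-cell and morula means, but not for nuclear transfer blastocysts. For derived cells of either kind it was below every other fibroblast library. These correlations run across genes, which are not independent replicates. What made this library differ was not tested.

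**Figure D5:**
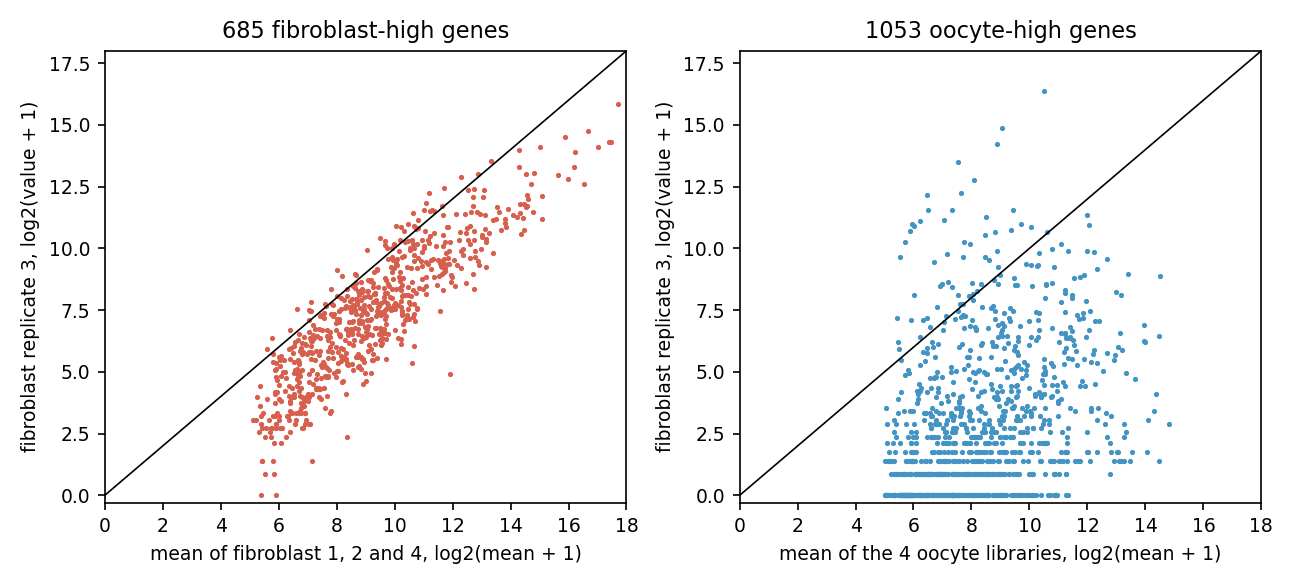
Value of each gene in fibroblast replicate 3 (y axis) against the mean of fibroblast replicates 1, 2 and 4 for 685 fibroblast-high genes (left) and against the mean of the 4 oocyte libraries for 1053 oocyte-high genes (right), all as log2(value + 1), with the line of equality. On the left the points follow the line from below, with a median of 24.6% of the other libraries' mean; on the right they scatter from 0 reads, in 243 genes, to values above every oocyte library, in 49 genes.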

How the data were processed

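RNA was measured in 8 libraries, 4 of fibroblasts and 4 of oocytes, grouped by sample title. Per the labels' protocols, libraries came from the RNA fraction above 200 nt, by a kit for low input with repeated PCR. The submitters' processing notes list build UMD3.1 and the tools STAR, DESeq2, FastQC and MultiQC, with no version or role, and no label names a read counter or annotation. As deposited by the authors, the signal was 1 normalised read count per gene and library, with 1 decimal. Within each of the 8 libraries 99.99% to 100% of values above 0 were whole multiples of a single step (0.515 to 1.01), within a tolerance of 0.05 in the units of the value (at most 19.4% by chance), which gave whole reads.

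Genes with a value of 10 or more in at least 4 libraries were tested with limma 3.58.1 (trend, robust; R 4.3.3) on log2(value + 1), with no replicate block, two-sided and Benjamini-Hochberg adjusted. The fit was tested on simulated data with far fewer changed genes than were called here. In that test it recovered none of the genes changed by 1 log2 unit and most of those changed by 2 log2 units. Alternatives were scaling to equal totals or by median of ratios, edgeR 4.0.16 and DESeq2 1.42.0 on recovered reads, another pseudocount, other filters, a replicate block and leaving out each library. Without fibroblast replicate 3, a minimum in 4 of the 7 libraries had been chosen. The 3 remaining fibroblast libraries cannot meet it alone, so the text gives the 13191 genes, and, where stated, a minimum in 3 of 7, both chosen after seeing the data. The rule for named genes asked for symbols; without them, the identifiers printed are the 2 per direction with the largest difference among called genes whose higher mean was 50 or more and whose libraries did not overlap. Members, lists and tests were chosen with earlier results of these data known. The lists of named genes and the promoter motifs were not used here, since no identifier matched a symbol. No pair of libraries of a group agreed within sampling noise (chi-square per degree of freedom 14.8 or more).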

Additional observations from a re-analysis of the deposited data

Results flagged for a closer look

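In each group of 4 libraries the value farthest from the others was set against Dixon's limit, in 28 groups of values, of which chance flags about 1 in 20. It was passed 9 times. Fibroblast replicate 3 accounted for 6: its mean correlation with its own group was 0.838, its top 10 genes held 9.17% and its top 100 genes 26.3% of reads, 602 genes held 50% of its reads, the median of its fibroblast-high genes was 156.5, and oocyte-high genes took 2.83% of its counts (0.505% for the list chosen with all 8 libraries). These 6 are not independent of each other: 3 measure how concentrated the reads are, and 2 use genes chosen from the other 7 libraries, which favours genes in which the other fibroblasts lie together. This library was also known to stand apart beforehand, so the chance rate does not apply to it. Oocyte replicate 4, the shallowest library, had slightly more reads in its top 10 genes, 3.36% against 3.11% to 3.15% in the other oocytes, and in its top 100 genes, 15.04% against 14.5% to 14.6%. The remaining value was that of ENSBTAG00000002080 in oocyte replicate 1, 0.6, which is 1 read against 0 in the other oocyte libraries.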

How the results depend on the processing

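The number of genes called, 10335, was 8495 to 12773 under 9 alternatives of scaling, test, pseudocount, filter, variance model and replicate block, and 9988 to 11699 when each library was left out in turn (with a minimum in 3 of the 7 left), with the most without fibroblast replicate 3. By edgeR it was 10160 and by DESeq2 10331. The 4 identifiers printed kept their direction and their call in every one of these fits. The counts of genes at least 32-fold different fell from 546 and 938 to 221 and 367 with a pseudocount of 10, as a larger pseudocount shrinks low values. Without fibroblast replicate 3 and with a minimum in 4 of the 7 libraries, 10426 genes were called, 4492 higher in fibroblasts and 5934 higher in oocytes; without a filter those higher in fibroblasts numbered 6781, as more genes were tested. The genes at the floor in one group were 43 and 362; these became 137 and 556 with a floor of 10 reads and 132 and 561 without fibroblast replicate 3. The genes within 0.5 of no difference went from 52 to 98 without that library. With the replicate number as a block 10161 genes were called. No pairing by number was seen. Deviations of same-numbered libraries from their group means correlated at -0.11 to 0.07, and 1 of the 4 fibroblast libraries correlated best with its own number. The fibroblast mean includes the outlying replicate 3, which shapes the deviations of the others, so this cannot exclude a pairing. Gene lists under each alternative were not run. In oocytes and fibroblasts alike, differences of genes with a few reads are limited by depth.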
